A study of Mus musculus with 21 samples.

Results

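Homologous recombination and base excision repair were described by 41 genes chosen by symbol, 20 of the first pathway and 21 of the second, among the 19399 genes listed in all 4 deposited tables. All 41 were listed in every table, so none was lost to a filter on low values. Polyadenylated RNA came from 21 cultures of cortical neurons taken from newborn mice, of which 10 were Tau (5 given DMSO, 5 given AdipoRon) and 11 were WT (5 given DMSO, 6 given AdipoRon). Tau cultures carried hTau P301S, a mutant human tau cDNA driven by a prion promoter, and were seeded with pre-formed fibrils. WT cultures carried no transgene. The growth protocol mentions seeding for transgenic neurons, while the study's account of the sequencing can be read as seeding of both genotypes. If WT cultures were not seeded, genotype and seeding cannot be told apart. AdipoRon, an agonist of the adiponectin receptors, was given for 24 h at 10 μM according to the sample tags (the protocol text deposited with the samples has mM), and DMSO was its vehicle. All cultures received cytosine arabinoside, which was added to remove dividing glia. According to the study's reporting summary, each drug treatment drew on the same animals, so the cultures with AdipoRon and with DMSO may not be independent.

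Homologous recombination mends double-strand breaks with a sister chromatid as the template, and is therefore used mainly by cells that have copied their DNA. Base excision repair removes single damaged bases in dividing and resting cells alike. It is the main defence of neurons, with their high oxygen use, against oxidised, deaminated and alkylated bases. In this pathway a glycosylase cuts out the base, an endonuclease opens the strand, a polymerase fills the gap and a ligase closes it.

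Values per culture were not used here. The level of a gene is the authors' mean log2 CPM (CPM scales the reads of a gene to the size of the library) over the samples of a table. It is the log2 of an average CPM and not an average of log2 values, so a single high culture can raise it. One table covers the 10 cultures with DMSO, one the 11 with AdipoRon, one the 11 WT cultures and one the 10 Tau cultures. The AdipoRon and DMSO tables share no culture, nor do the Tau and WT tables, so 2 differences could be formed: AdipoRon minus DMSO over both genotypes, and Tau minus WT over both treatments. The response of each genotype by itself cannot be recovered from these means, so the 4 comparisons of single groups were not made. Both differences reuse the same 21 cultures, and the WT cultures with AdipoRon stand on the first side of one and the second side of the other, so the differences are not independent of each other. The share of Tau cultures was also not quite equal, 5 of 11 with AdipoRon and 5 of 10 with DMSO. How the authors scaled the libraries of each table, and whether they did so table by table, is not given in the sources used here. A mean without its replicates has no error, so no difference below was tested and none can be set against the spread between cultures. Whether a difference exceeds that spread is unknown, and depth per culture is unknown as well. As a yardstick each count of members is given beside the share of all genes that met the same rule, with a difference of 0.25 on the log2 scale (1.19-fold) as the mark. The median difference of all genes was 0.03 between the treatments and -0.00 between the genotypes.

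The cultures were checked against marker genes. Neuronal markers were abundant, with mean levels between 7.66 (Tubb3) and 9.97 (Snap25) log2 CPM. Markers of astrocytes (8.22 to 10.9) and of the oligodendrocyte lineage (5.55 to 9.26) were in an overlapping range. Those of dividing cells were lower, from 2.09 (Ccnb1) to 5.42 (Mki67), as were those of microglia (1.61 to 4.99). Markers of several cell types were thus present beside the labelled neurons. In such RNA fewer cells of a type and less RNA per cell cannot be told apart.

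Sequences are shown for Brca1, Brip1, Rad54l and Neil3, which were at least 0.25 higher with AdipoRon and at least 0.25 lower in Tau cultures, and which have an unbroken stretch before their start that lies outside every annotated gene. Eme1 and Mbd4 met the same marks and have no such stretch, and Rad54b had no window. Bard1 is added because it held a motif of E2F factors, which drive genes of the S phase. The stretches come from RefSeq windows of build GRCm38.p6 (the mm10 assembly), run 5′ to 3′ on the gene's strand, and leave out bases inside any annotated gene. Capitals mark CCAAT (the box bound by NF-Y), GGGCGG (bound by Sp1), TTTCCCGC (a form of the E2F site) and TTTGAA (a cell cycle element). Both strands were searched. These genes were picked after their values were seen.
Brca1, chr11:101551956-101552106, minus strand: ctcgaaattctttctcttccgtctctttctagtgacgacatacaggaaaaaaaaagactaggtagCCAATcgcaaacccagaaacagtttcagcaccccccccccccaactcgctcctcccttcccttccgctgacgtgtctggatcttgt
Brip1, chr11:86201216-86201359, minus strand: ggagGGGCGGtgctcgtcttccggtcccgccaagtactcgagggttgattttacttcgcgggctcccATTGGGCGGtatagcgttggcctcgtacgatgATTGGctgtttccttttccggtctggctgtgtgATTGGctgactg
Rad54l, chr4:116123701-116123839, minus strand: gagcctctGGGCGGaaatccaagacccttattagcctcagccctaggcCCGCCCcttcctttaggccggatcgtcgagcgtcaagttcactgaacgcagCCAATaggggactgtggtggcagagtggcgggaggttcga
Bard1, chr1:71103142-71103222, minus strand: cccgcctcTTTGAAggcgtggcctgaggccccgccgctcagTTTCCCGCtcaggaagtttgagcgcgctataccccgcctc
Neil3, chr8:53639066-53639315, minus strand: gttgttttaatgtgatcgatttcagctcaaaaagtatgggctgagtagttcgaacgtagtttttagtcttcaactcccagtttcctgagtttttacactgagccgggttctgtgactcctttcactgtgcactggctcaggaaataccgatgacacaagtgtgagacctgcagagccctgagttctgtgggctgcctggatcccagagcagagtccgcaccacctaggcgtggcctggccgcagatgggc
Brip1 held 3 CCAAT boxes, one of which shares letters with a GGGCGG, and 2 GGGCGG in all, and Rad54l held 1 CCAAT and 2 GGGCGG. Neil3 held none of the 4 motifs in this window. A match is a run of letters and not a measured binding site.

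Promoter windows were at hand for 32 of the 41 members. In the 250 bases before the start site, CCAAT was found in 18 of the 32 (56.2%), against 36.3% of 17492 protein-coding promoters. GGGCGG was found in 18 as well (56.2%, against 42.7%). TTTCCCGC was found in 2, Bard1 and Brca2 (6.25%, against 1.22%), and TTTGAA in 2, Bard1 and Fen1 (6.25%, against 15.0%). In all 11 motifs were searched, after the values of the genes were known. CACGTG (the E-box bound by MYC and USF factors) was found in 6 of the 32 windows (18.8%, against 6.64%) and TTTAAA in 3 (9.38%, against 11.4%). Of the other forms of the E2F site, TTTCGCGC was found in 1 window (3.12%, against 0.354%). TTTGGCGC and TTTGCCGC, also forms of that site, were found in none, against 0.532% and 0.354% of protein-coding promoters. CGCATGCG and the longer NRF1 motif that holds CGCATGCG were found in none either, against 2.09% and 1.06%. Of the 32 windows, 16 also reached into a second gene. That of Brca1 reached Nbr1 and that of Brip1 reached the noncoding Brip1os, both of which run on the opposite strand.

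Per kilobase of transcript, base excision repair genes were the more abundant, with a median of 2.57 log2 CPM per kb against 0.19 for homologous recombination. Before division by length the medians were 4.16 and 2.66 log2 CPM. The extremes of the recombination genes were Atm, the kinase that responds to double-strand breaks (5.44), and Rad51b (-0.10). In base excision repair they were Parp1, which binds broken strands and marks them with poly(ADP-ribose) (6.57), and Neil3, a glycosylase of replicating cells (1.10). Divided by the length of the canonical transcript, so that genes can be compared, the highest levels were those of Apex1, the main abasic site endonuclease (5.21 log2 CPM per kb), the gap-filling polymerase gene Polb (4.61), Parp1 (4.61) and Hmgb1 (4.14). The lowest were Brip1, a helicase partner of BRCA1 (-1.89), Rad51b (-1.54) and the strand-exchange motor gene Rad54l (-1.16).

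**Figure D1:**
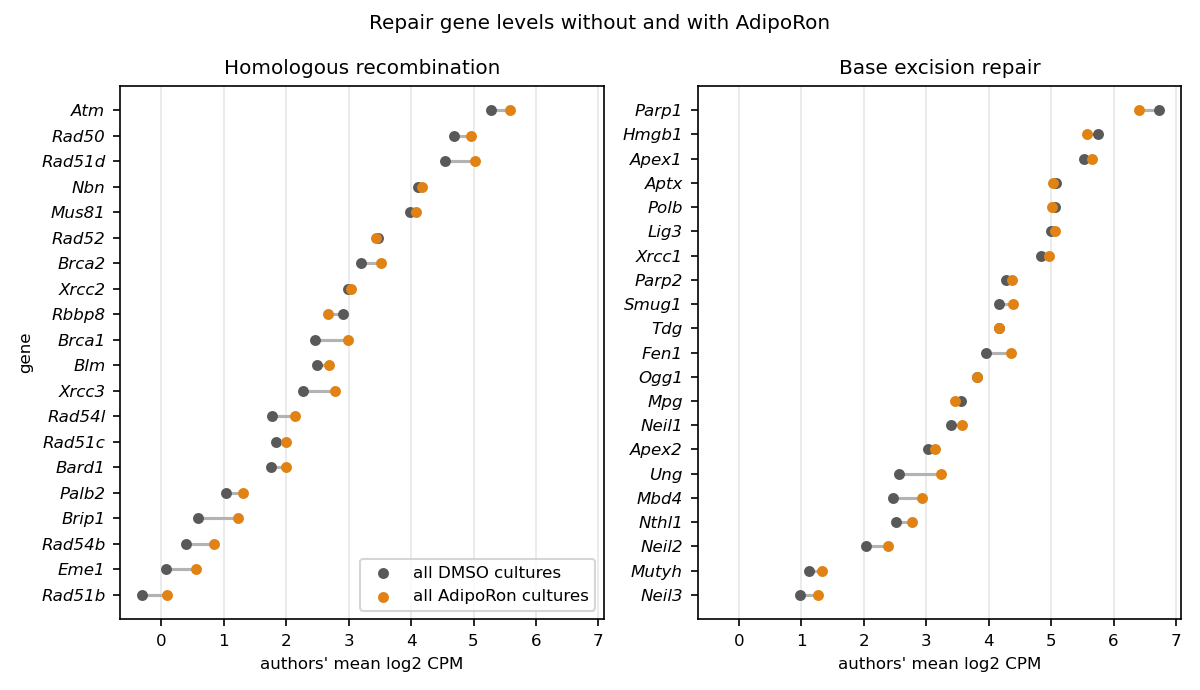
Authors' mean log2 CPM (horizontal axis) of each member, sorted by mean level, over all DMSO cultures (grey) and all AdipoRon cultures (orange), with no error since values per culture were not used. The orange point lies to the right in 18 of 20 recombination genes and 15 of 21 base excision repair genes.

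With AdipoRon, 18 of the 20 recombination genes had a higher mean than with DMSO, and 12 of them by at least 0.25, up to 0.64 for Brip1. Over all genes, 55.5% were higher and 16.1% were higher by at least 0.25. The median difference was 0.29. Members below 0 were Rbbp8, which starts the trimming of broken ends (-0.24), and the annealing factor Rad52 (-0.03). None was lower by 0.25, as 14.6% of all genes were. From the lowest to the highest 5% of genes, the differences spanned -0.71 to 0.55 at a mean level under 4 log2 CPM and -0.42 to 0.39 at 4 or over. Among genes under 4, where 19.6% were higher by 0.25, 9 of 15 recombination genes were. At a level of 4 or over the share of all genes was 12.5%, and 3 of 5 recombination genes met the mark. At a stricter mark of 0.5, met upwards by 4.4% of all genes and downwards by 6.3%, 3 recombination genes were higher (Brip1, Brca1 and Xrcc3) and none was lower.

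The genes of the BRCA complex, which prepares resected ends for strand exchange, all had a higher mean with AdipoRon, as did 55.5% of all genes. They are part of the 18 of 20 recombination genes counted above. Brca1 was at 2.46 log2 CPM over DMSO cultures and 3.00 over AdipoRon cultures, a difference of 0.54 (1.45-fold). Brca2, which binds the single-stranded end, had 3.20 and 3.53. Brip1 had 0.59 and 1.23, which is 1.56-fold and stood above 97.7% of all genes. For Palb2, the bridge between the BRCA proteins, the means were 1.04 and 1.32, and for Bard1, the partner of BRCA1 in its ubiquitin ligase, 1.76 and 2.00.

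Rad51b, Rad51c, Rad51d, Xrcc2 and Xrcc3, whose products act in complexes during strand exchange, also had a higher mean in 5 of 5 genes. Over all genes 55.5% had, and these 5 are likewise part of the 18 of 20 counted above. Xrcc3 and Rad51d had similar differences at different levels. Xrcc3 had 2.28 log2 CPM with DMSO and 2.78 with AdipoRon, and Rad51d had 4.54 and 5.02. Rad51b, the member with the lowest mean level, had -0.31 and 0.09. Rad51c (0.15) and Xrcc2 (0.04) differed less.

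Among motors and nucleases, Rad54b had means of 0.40 and 0.85 log2 CPM and Rad54l had 1.77 and 2.15. Eme1, the partner subunit of a nuclease that cuts joined strands, had 0.08 and 0.55, whereas Mus81, the catalytic subunit of that nuclease, differed by 0.09. The RecQ helicase gene Blm differed by 0.20. Of the break sensors, Atm had 5.28 and 5.58, and Rad50, the coiled-coil subunit of the end-binding complex, had 4.68 and 4.96. Nbn, the third subunit of that complex, differed by 0.07. These sensors, the most abundant recombination genes beside Rad51d, differed by less than Brca1 and its partner Brip1. The other BRCA complex genes, Brca2 (0.33), Palb2 (0.28) and Bard1 (0.24), were close to Atm (0.30) and Rad50 (0.28). Rad51d, about as abundant as Rad50, differed by 0.48.

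In base excision repair the differences with AdipoRon were more mixed. Of 21 genes, 15 were above 0, 6 were higher by at least 0.25 and 1 was lower by that much, and the median was 0.12. Over all genes, 55.5% were above 0, 16.1% were higher by at least 0.25 and 14.6% were lower by that much. Among genes under 4 log2 CPM, 5 of 10 members met the upper mark (19.6% of all such genes), and at 4 or over 1 of 11 did (12.5%). At the mark of 0.5, 1 was higher (Ung) and none was lower, while 4.4% of all genes were higher and 6.3% lower.

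**Figure D2:**
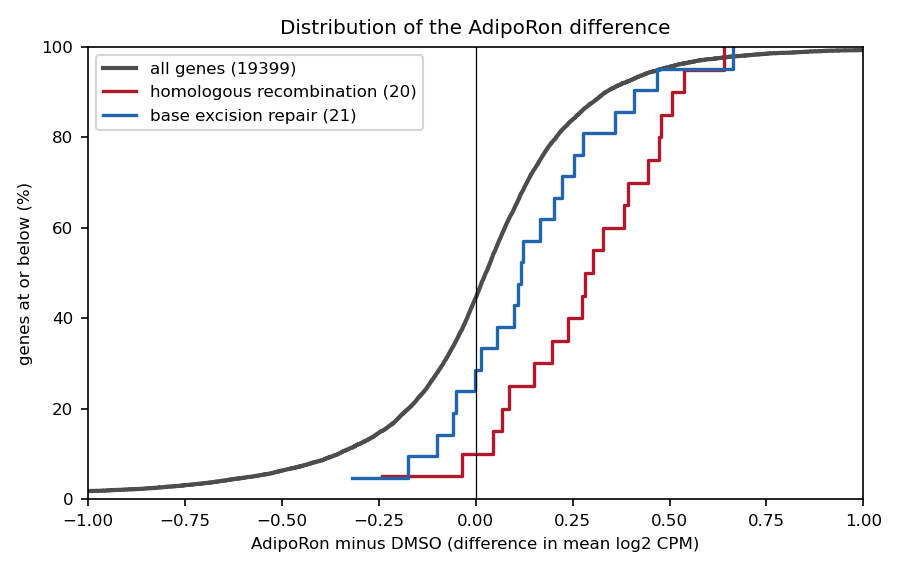
Percentage of genes (vertical axis) at or below each AdipoRon minus DMSO difference in mean log2 CPM (horizontal axis), for all genes, the 20 recombination genes and the 21 base excision repair genes. The axis is limited to 1 on either side of 0, and the recombination curve lies right of the all-gene curve except near its top, with a median of 0.29 against 0.03.

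The glycosylases, which were 11 of the 21 genes, held 5 of the 6 genes past the upper mark. That is 45.5% of the glycosylases, against 16.1% of all genes. All 5 had a level under 4 log2 CPM, where 19.6% of all genes met the mark. Ung, which removes uracil from DNA, had 2.57 log2 CPM with DMSO and 3.23 with AdipoRon, the largest difference of all members at 0.67 (1.59-fold). Mbd4, which acts on mismatches at methylated CpG sites, had 2.46 and 2.93. Neil2 (2.03 and 2.39), Neil3 (0.99 and 1.26) and Nthl1 (2.52 and 2.78), all of which remove oxidised bases, followed. Ogg1, the glycosylase of 8-oxoguanine, had 3.81 and 3.82. Tdg, which excises thymine and oxidised 5-methylcytosine, had 4.16 with both, and Mpg, which removes alkylated bases, had 3.56 and 3.47. Of the remaining glycosylase genes, Neil1, which acts on oxidised bases, differed by 0.17, Mutyh, which removes adenine opposite 8-oxoguanine, by 0.20 and Smug1, a second uracil glycosylase, by 0.22.

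Downstream of the glycosylases, most genes of incision, filling and ligation differed by less than the mark. Apex1 differed by 0.12, Apex2 by 0.11, Polb by -0.05, Lig3, the ligase of this pathway, by 0.06, its scaffold Xrcc1 by 0.12 and Aptx, which cleans blocked ends, by -0.06. Parp2 differed by 0.10. Fen1, the flap nuclease of the long-patch route and of lagging-strand synthesis, had a wider difference, with 3.95 and 4.36 log2 CPM. Parp1 was lower with AdipoRon, with 6.73 and 6.41, a difference of -0.32 that was above 11.4% of all genes. Hmgb1, a chromatin protein, differed by -0.17.

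Reads of overlapping genes may be shared, as the sources used here do not say whether the libraries kept strand. In RefSeq the spans of 20 of the 41 members overlap another gene. Ung overlaps Alkbh2, a gene of direct repair of alkylated DNA, whose own difference with AdipoRon was 0.49. Mbd4 overlaps Ift122 (0.01) and Fen1 overlaps Tmem258 (0.02). Recombination genes with large differences overlap others too: Xrcc3 overlaps Klc1, Rad54l overlaps Lrrc41, Rad54b overlaps Fsbp, and Eme1 overlaps Lrrc59 and Mrpl27.

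**Figure D3:**
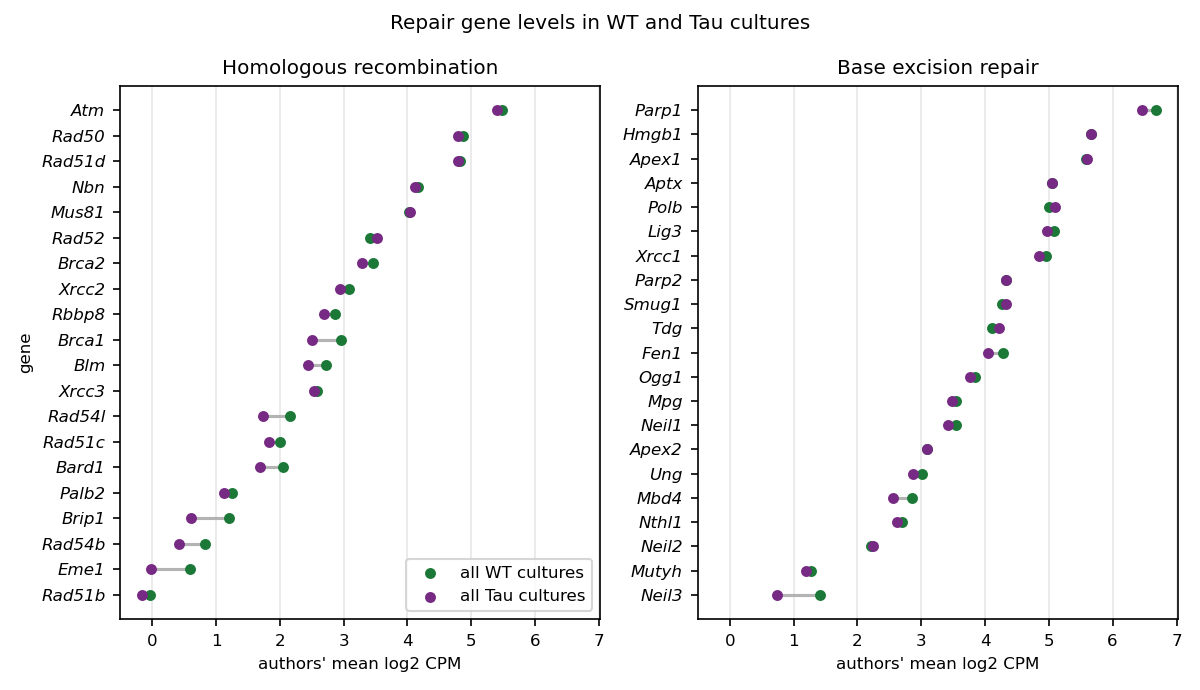
Authors' mean log2 CPM (horizontal axis) of each member over all WT cultures (green) and all Tau cultures (purple), in the order of mean level. The purple point lies to the left in 18 of 20 recombination genes and 15 of 21 base excision repair genes, and the widest gaps are those of Neil3, Eme1 and Brip1.

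Between the genotypes the recombination genes leaned the other way. In Tau cultures 18 of 20 had a lower mean than in WT cultures, 7 by at least 0.25, and none was higher by that mark. Over all genes 50.3% were lower, 9.02% were lower by 0.25 and 11.2% were higher by it. The median difference was -0.16, and -0.08 over the members with a level of at least 2 log2 CPM. All 7 had a level under 4 log2 CPM, a range in which 13.7% of all genes met the lower mark. They were Eme1, with 0.60 log2 CPM over WT and -0.01 over Tau cultures, Brip1 (1.20 and 0.61), Brca1 (2.96 and 2.50), Rad54l (2.16 and 1.73), Rad54b (0.83 and 0.42), Bard1 (2.04 and 1.69) and Blm (2.72 and 2.44). At a level of 4 or over, where 4.29% of all genes met the lower mark, 0 of 5 recombination genes did, and their differences ran from -0.08 for Rad50 to 0.01 for Mus81. Rad52 was higher in Tau cultures, by 0.11. At the mark of 0.5, met downwards by 3.57% of all genes and upwards by 3.43%, Eme1 and Brip1 were lower and none was higher.

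Of the base excision repair genes, 15 of 21 were lower in Tau cultures and 2 by at least 0.25, with a median of -0.08. Over all genes, 50.3% were lower and 9.02% were lower by at least 0.25. Among genes under 4 log2 CPM 2 of 10 met the lower mark (13.7% of all such genes), and at 4 or over 0 of 11 did (4.29%). Neil3 had the largest difference of all members, with 1.41 log2 CPM over WT and 0.74 over Tau cultures (-0.68). Mbd4 had 2.86 and 2.56. Next came Fen1 (-0.23) and Parp1 (-0.22). At the mark of 0.5 only Neil3 was lower, while 3.57% of all genes were. Apex1 (0.01), Apex2 (0.01), Parp2 (-0.01), Aptx (-0.00) and Hmgb1 (-0.00) had nearly equal means, and the differences of Tdg (0.11) and Polb (0.10) were the highest of this pathway.

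Set side by side, the AdipoRon and the Tau differences were 0.64 and -0.59 for Brip1, 0.54 and -0.46 for Brca1, 0.47 and -0.61 for Eme1, and 0.28 and -0.68 for Neil3. As the same cultures enter both, one is no support for the other. Parp1 had a lower mean with AdipoRon and in Tau alike. Xrcc3, Rad51d and Ung were high with AdipoRon and near 0 or weakly negative between genotypes, at -0.04, -0.04 and -0.14.

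**Figure D4:**
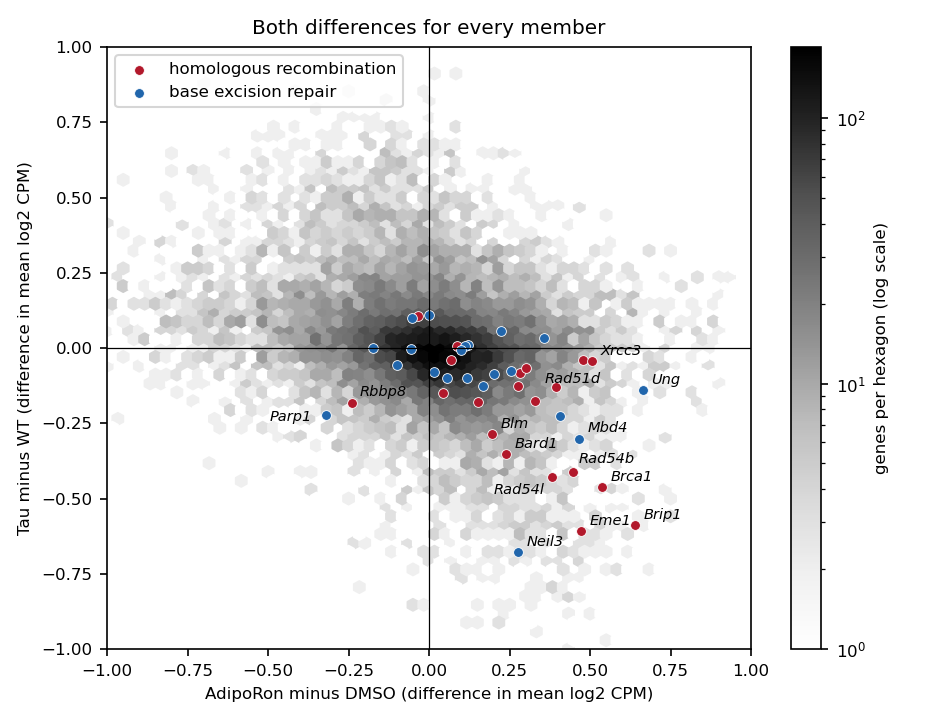
Each member by its AdipoRon minus DMSO difference (horizontal axis) and its Tau minus WT difference (vertical axis), both in mean log2 CPM, over the density of all genes (grey, log scale, genes beyond 1 on either side of 0 not drawn). Both axes rest on the same cultures. Brip1, Brca1, Eme1 and Rad54b lie in the lower right corner, Ung far right near the middle and Parp1 lower left.

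Of 25 further recombination genes, 17 had a higher mean with AdipoRon, 6 by at least 0.25, with a median of 0.17, and 3 were lower in Tau by the mark. These are 68%, 24% and 12% of the list, against 55.5%, 16.1% and 9.02% of all genes. Rpa2, a subunit of the single-strand binding protein, differed by 0.54 with AdipoRon, as did the nuclease gene Dna2 (0.54). Of 15 further base excision repair genes, 14 were higher with AdipoRon, 5 by the mark (median 0.19), and 4 were lower in Tau by it, which are 93.3%, 33.3% and 26.7% of the list against the same shares of all genes. These 4 were the replication genes Lig1 (-0.54), Pole (-0.44), Pcna (-0.42) and Pole2 (-0.42), and with AdipoRon they had differences of 0.59, 0.38, 0.31 and 0.38.

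Markers of some other cell types differed between the genotypes. All 4 markers of dividing cells were lower in Tau, with Mki67 at -0.72, Top2a at -0.63, Cdk1 at -0.60 and Ccnb1 at -0.58, and their part in the values of Neil3, Eme1, Brip1 and Brca1 was not tested. All 5 microglial markers (from -1.41 for Aif1 to -0.42 for P2ry12) and all 6 of the oligodendrocyte lineage (from -1.64 for Sox10 to -0.17 for Olig1) were lower in Tau as well, whereas 7 of 8 neuronal markers were higher (median 0.10). With AdipoRon the dividing-cell markers were spread around 0, at 0.28 for Cdk1, 0.13 for Top2a, 0.05 for Mki67 and -0.22 for Ccnb1. Of the neuronal markers 7 of 8 had a lower mean with AdipoRon (median -0.21), and their part in the values of the repair genes was not tested. Of 4 astrocyte markers 2 were higher by the mark with AdipoRon, Aldh1l1 (0.42) and Gfap (0.34), and 2 were below 0, Slc1a3 (-0.24) and Aqp4 (-0.23). Between genotypes the 4 ran from -0.28 to 0.04. With AdipoRon the microglial markers ran from -0.47 to 0.41 and those of the oligodendrocyte lineage from -0.57 to 0.02. Of the 4 vascular markers 3 were listed in all tables, with differences from -0.15 to 0.20 with AdipoRon and from -0.08 to 0.34 between genotypes, and Pecam1, of endothelial cells, was the scarcest marker.

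**Figure D5:**
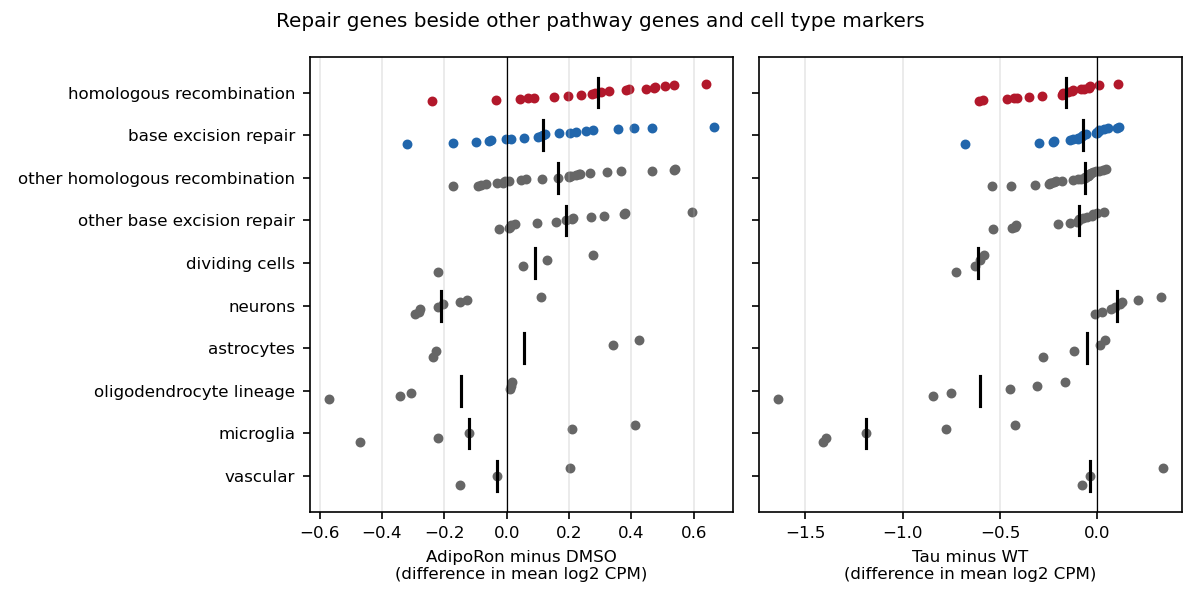
Differences in mean log2 CPM (horizontal axes) for the members, the further genes of both pathways and marker lists of other cell types (rows), each point a gene and each black bar the median of its list. In the right panel the 4 dividing-cell markers lie between -0.72 and -0.58, and in the left panel they lie on either side of 0.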

How the data were processed

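The authors deposited 4 tables of edgeR results from 21 cultures, each over a pair of groups, and the sample descriptions name the tables that each culture entered. The submitters' processing notes name mm10, STAR and the edgeR package used by the authors. The methods add RSEM, the study's results name GRCm39, and the table names carry Rsubread, so aligner and build are uncertain. Library scaling and any filter on low genes are not given in the sources used here. The value used is the log2 CPM that the authors deposited per gene, the log2 of an average over the samples of a table. It includes a prior count that bears most on scarce genes. Fold changes, likelihood ratios, p-values and false discovery rates in the tables are the authors' own comparisons and were not used. No column holds values per sample, so the tests planned for each comparison could not be run.

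Tables that share no sample were subtracted (AdipoRon minus DMSO, Tau minus WT) with Python 3.11.15 and pandas 2.3.3, over the 19399 genes in all tables. The subtraction code was run on artificial data, to check its arithmetic only. Whether library scaling, the prior count or the spread between cultures affects the differences was not tested. The DMSO and AdipoRon means together minus the WT and Tau means together came to between -0.09 and 0.10 for the members. Lengths were those of canonical transcripts in GENCODE M39 (GRCm39), and promoters came from RefSeq (GRCm38.p6). Members and lists were chosen with earlier results of these data known. The rule for named genes took members called by a test, of which none could be run, members missing from a table, of which there were none, and the highest and lowest member of each pathway. All other genes described, the differences formed, the marks of 0.25 and 0.5, the split at a level of 4 and the role groups were chosen after values were seen. One gene of the list of further recombination genes is not reported here.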

Additional observations from a re-analysis of the deposited data

How the results depend on the processing

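The planned tests, and with them other normalizations, filters, pseudocounts, thresholds and left-out replicates, were not run, since they need values per sample. No paired analysis was possible because the columns carry no replicate numbers. With no spread between replicates, a median was taken as unmoved within 0.1 log2, a tolerance set for this purpose. That tolerance is close in size to the base excision repair medians, 0.12 with AdipoRon and -0.08 in Tau. It therefore cannot show that these medians held. The median level of the recombination genes was 2.48 log2 CPM in the DMSO table, 2.80 in the WT table and 2.52 in the Tau table, and that of base excision repair was 3.95 in the DMSO table and 4.05 in the Tau table. With a mark of 0.5, chosen after seeing the data, 3 recombination genes and 1 base excision repair gene were higher with AdipoRon, 0 base excision repair genes were lower with it, and 2 recombination genes and 1 base excision repair gene were lower in Tau. Taking off the median of all genes, also chosen after seeing the data, put 1 recombination gene, Rbbp8, past the lower mark with AdipoRon. The other alternatives run moved the medians by under 0.1 and the counts by no more than 1.5 times. Among them, keeping members with a level of at least 2 log2 CPM took the recombination median in Tau from -0.16 to -0.08. Depth per culture is unknown, and the scarcest members are the least certain.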

Other observations

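Of the 16 members whose upstream window reached into another gene, 12 had a neighbour listed in all tables. Brip1os, a noncoding neighbour of Brip1, had a higher mean with AdipoRon (0.31) and a lower one in Tau cultures (-0.29), and Brip1 itself had 0.64 and -0.59. Nbr1, an autophagy receptor gene next to Brca1, had 0.06 and 0.01, where Brca1 had 0.54 and -0.46. Npat, a histone gene activator next to Atm, had 0.07 with AdipoRon against 0.30 for Atm, and Dctn5, a dynactin subunit gene next to Palb2, had -0.03 against 0.28. Mrpl27, which overlaps Eme1, had 0.12 against 0.47. Alkbh2, next to Ung, had 0.49 with AdipoRon against 0.67, and Tsc2, next to Nthl1, had 0.17 against 0.25. Osgep, next to Apex1, had 0.21 with AdipoRon and -0.13 in Tau, where Apex1 had 0.12 and 0.01. Toe1 (0.00), Ift122 (0.01), Tmem258 (0.02) and Gm11423 (-0.00) stood against 0.20 for Mutyh, 0.47 for Mbd4, 0.41 for Fen1 and 0.06 for Lig3.

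Among the 41 members the genes with lower levels had the higher AdipoRon differences (Spearman's rho -0.54), while over all 19399 genes rho was 0.05. By pathway, rho was -0.36 over the 20 recombination genes and -0.70 over the 21 base excision repair genes. Between level and the Tau minus WT difference, rho was 0.58 over the members and -0.22 over all genes. By pathway it was 0.66 for recombination and 0.30 for base excision repair. The pathways also differed in median level and in median difference, and the part of this in either pooled rho was not tested. Each rho is across genes, which are not independent replicates, and the points share their cultures and libraries.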
